A study of Rattus norvegicus with 24 samples.

Results

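The cytochrome P450 genes described here are those of the rat liver array whose symbol begins with Cyp and a digit, apart from 13 that were set aside (Cyp7a1, Cyp8b1, Cyp27a1, Cyp7b1, Cyp1a1, Cyp1a2, Cyp2c11, Cyp2c13, Cyp2a2, Cyp3a2, Cyp51, Cyp17a1 and Cyp4a1). The rule used symbols and no measured value of the response, but it was chosen with earlier results of these data known. It found 42 of the 13438 genes measured, on 48 probe sets that each named 1 gene. Where a gene had several such probe sets, the brightest on average stood for it. A further 10 P450 probe sets carried several gene identifiers and were left out. Some named several genes, among them Cyp2b1 with Cyp2b2, Cyp2d1 with Cyp2d5 and Cyp4a2 with Cyp4a3. Those of Cyp2c7 and Cyp2c6v1, and 1 of Cyp11b1, held 1 symbol under several identifiers.

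Liver RNA of 24 male Sprague Dawley rats, 8 weeks old, was measured on 24 one-colour oligonucleotide arrays, 1 rat per array and 6 rats in each of 4 groups. Rats were given once, by stomach tube, either alpha-naphthylisothiocyanate (ANIT) at 50 mg/kg in corn oil or corn oil alone at 10 ml/kg, and separate rats were examined 24 h or 120 h later. By the labels, injury to the liver peaked at the first of these times and the second fell in its repair. Both vehicle and ANIT rats were fasted for about 18 h overnight, received 100 mg/kg bromodeoxyuridine into the peritoneum about 2 h before necropsy and were killed with CO2. ANIT is a model toxicant of rodent liver, known to damage the cells lining the bile ducts and, around them, hepatocytes. Whole liver was extracted, so fewer cells of a type and less RNA per cell cannot be told apart in any value below.

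P450 enzymes are haem proteins that insert oxygen into drugs, steroids, fatty acids and vitamins. Those of the endoplasmic reticulum draw electrons from the reductase Por, with cytochrome b5 as a second donor, and those of mitochondria draw them from the ferredoxin Fdx1. In liver most are made by hepatocytes, many in the cells around the central vein, and several are under the control of the receptors PXR (Nr1i2), CAR (Nr1i3) and the factor HNF4A.

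At 24 h after ANIT, 3 of the 42 genes rose and 7 fell, and 32 did not pass the test. The rises were in Cyp3a9, a steroid-hydroxylating CYP3A enzyme (2.49-fold), Cyp2c22, a retinoic acid hydroxylase of rat liver (1.90-fold), and Cyp2j10 (1.5-fold). The falls were in Cyp4f4 (1.82-fold), Cyp2j4 (1.62-fold), Cyp2e1 (1.49-fold), Cyp2d3 (1.42-fold), Cyp2j3 (1.32-fold), Cyp2c23 (1.32-fold) and Cyp4f1 (1.29-fold). At 120 h Cyp2c22 alone was still called, 1.38-fold above vehicle, and none was called lower. Calls rest on limma p-values adjusted by Benjamini and Hochberg's method over all 13438 genes, with a threshold of 0.05 and any fold accepted.

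These counts were read against all genes. At 24 h 12.9% of all genes were called higher and 5.31% lower, while 7.14% of the P450 genes were called higher and 16.7% lower. An unadjusted limma p under 0.05 was reached by 12 of the 42 (28.6%) at 24 h, beside 30.9% of all genes. The median log2 change over the 42 genes was -0.12, beside 0.00458 over all genes, and 11 of the 42 changes were above 0. At 120 h 0.513% of all genes were called higher and 1.51% lower. There the P450 genes had 1 higher and 0 lower by limma, with 6 of the 42 (14.3%) at an unadjusted p under 0.05, beside 13.9% of all genes, and their median log2 change was 0.03 beside -0.0059 over all genes. The 13 P450 genes that the rule leaves out had 3 higher and 8 lower at 24 h, a median log2 change of -0.68. Of these 84.6% were called, beside 23.8% of the 42.

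**Figure D1:**
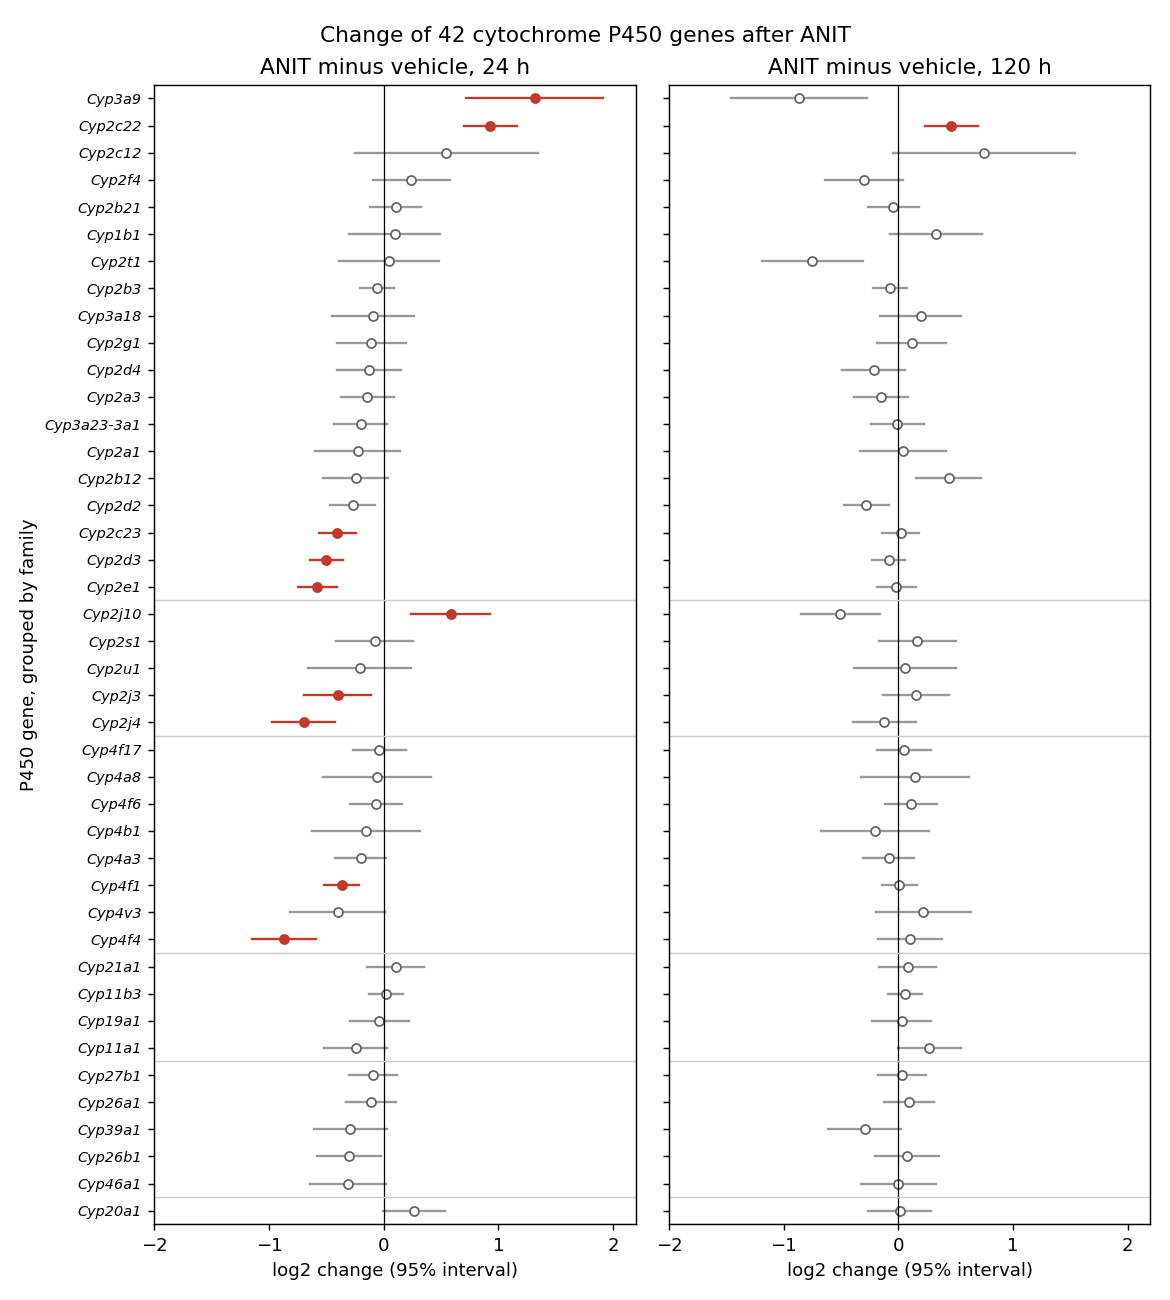
Change of each of the 42 P450 genes (rows, grouped by family) as the log2 difference ANIT minus vehicle at 24 h (left) and at 120 h (right). Points are estimates and bars 95% intervals, with filled red points for genes called. The 10 called at 24 h lie between -0.87 and 1.31, and Cyp2c22 is the single red point at 120 h.

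The stretches below show the start of transcription of the 3 genes with the largest rises at 24 h (Cyp3a9, Cyp2c22, Cyp2j10) and of the 3 with the largest falls that have an entry (Cyp2j4, Cyp2e1, Cyp2d3), to set side by side genes that moved in opposite directions. They run from 120 bases before to 30 after the annotated start in RefSeq's GRCr8 assembly, where 37 of the 42 genes have an entry. Capitals mark matches to any of 5 motifs searched on both strands, overlaps allowed: a TATA box (TATAAA), a nuclear receptor half-site (AGGTCA), an HNF1 half-site (GTTAAT), an Ah receptor core (GCGTG) and a C/EBP core (TTGCNNAA). The windows are chr12:21960131-21960280 (minus strand) for Cyp3a9, chr1:248980738-248980887 (minus) for Cyp2c22, chr5:116110780-116110929 (minus) for Cyp2j10, chr5:116323013-116323162 (minus) for Cyp2j4, chr1:205269847-205269996 (plus) for Cyp2e1 and chr7:115802113-115802262 (minus) for Cyp2d3.
Cyp3a9: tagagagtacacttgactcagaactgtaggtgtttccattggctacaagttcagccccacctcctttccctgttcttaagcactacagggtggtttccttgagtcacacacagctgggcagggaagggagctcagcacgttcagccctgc
Cyp2c22: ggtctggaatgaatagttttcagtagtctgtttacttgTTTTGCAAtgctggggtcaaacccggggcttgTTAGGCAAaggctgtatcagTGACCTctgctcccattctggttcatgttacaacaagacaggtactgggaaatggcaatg
Cyp2j10: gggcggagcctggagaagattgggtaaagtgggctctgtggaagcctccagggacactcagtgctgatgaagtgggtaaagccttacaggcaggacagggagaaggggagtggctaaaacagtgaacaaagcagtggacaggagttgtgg
Cyp2j4: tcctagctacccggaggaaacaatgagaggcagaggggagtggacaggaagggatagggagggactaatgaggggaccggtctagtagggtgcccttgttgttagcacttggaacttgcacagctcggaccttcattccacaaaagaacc
Cyp2e1: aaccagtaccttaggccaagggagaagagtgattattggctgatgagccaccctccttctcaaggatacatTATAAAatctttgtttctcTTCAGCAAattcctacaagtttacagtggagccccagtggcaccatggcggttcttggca
Cyp2d3: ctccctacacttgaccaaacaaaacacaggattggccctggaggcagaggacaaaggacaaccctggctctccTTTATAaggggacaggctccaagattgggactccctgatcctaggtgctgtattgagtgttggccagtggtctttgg

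Cyp2c22 held 2 C/EBP cores, both as the reverse of the spelling above, and 1 reversed nuclear receptor half-site, while Cyp2e1 held 1 TATA box and 1 reversed C/EBP core and Cyp2d3 held 1 reversed TATA box. The Cyp3a9, Cyp2j10 and Cyp2j4 windows held none of the 5 letter strings. Over the 37 genes, 8 held a TATA box, 4 a nuclear receptor half-site, 3 an HNF1 half-site, 7 an Ah receptor core and 8 a C/EBP core. In all 33469 promoters of the same length these strings were found in 7.5%, 8.54%, 3.46%, 19% and 5.05%. Of the 9 genes called at 24 h with an entry, 2, 1, 1, 1 and 2 held them. A match describes letters in these windows and says nothing of binding.

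The Cyp2j, Cyp2s and Cyp2u genes of family 2 are grouped separately below. Among the other 19 members of families 1 to 3, which hold most drug-metabolising enzymes, 2 rose and 3 fell at 24 h. That was 26.3% of the 19, beside 18.2% of all genes (12.9% higher and 5.31% lower). Cyp3a9 ranged from 8.29 to 10.52 on the log2 scale in vehicle rats at 24 h, with a median of 9.04, and from 9.90 to 10.94, with a median of 10.72, after ANIT. A single vehicle rat lay within the range of the ANIT rats and the groups overlapped. The log2 change was 1.31 ± 0.29 (SE, n = 6 rats a group), with a limma adjusted p of 0.00183. At 120 h vehicle rats ranged from 9.19 to 10.33 (median 9.61) and ANIT rats from 7.87 to 9.12 (median 9.05). Every ANIT rat then lay below every vehicle rat, but the change of -0.86 ± 0.29 had a limma adjusted p of 0.138. The ANIT effect on Cyp3a9 differed between the times by -2.18 ± 0.41 (limma adjusted p 0.000743).

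Cyp2c22 ranged from 11.08 to 11.84 in vehicle rats at 24 h (median 11.15) and from 11.92 to 12.30 after ANIT (median 12.24). All 6 ANIT rats lay above all 6 vehicle rats, with the highest vehicle rat and the lowest ANIT rat close together. The log2 change was 0.93 ± 0.11 (SE), with a limma adjusted p of 1.24e-06. At 120 h vehicle rats ranged from 10.95 to 11.22 (median 11.11) and ANIT rats from 11.41 to 11.84 (median 11.53). The groups were again apart, at a log2 change of 0.46 ± 0.11 and a limma adjusted p of 0.0284. Leaving out ANIT 120 h replicate 1 or 6, or any of vehicle 120 h replicates 1, 3, 5 and 6, gave adjusted p-values of 0.0502 to 0.0691. The difference of the 120 h from the 24 h effect was -0.47 ± 0.16, at a limma adjusted p of 0.048. Its call was lost when any of 20 single arrays was left out. With the beta-actin ratio, a measure of RNA quality, as a covariate the difference was -0.25 (adjusted p 0.689). That ratio did not overlap between the 24 h groups, so this fit cannot tell RNA quality from ANIT at 24 h.

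Cyp2e1, which oxidises ethanol and acetaminophen and is made by hepatocytes around the central vein, ranged from 12.04 to 12.38 in vehicle rats at 24 h (median 12.27) and from 11.43 to 11.90 after ANIT (median 11.65). Every ANIT rat lay below every vehicle rat. The log2 change was -0.58 ± 0.08 (SE), with a limma adjusted p of 1.06e-05. At 120 h vehicle rats ranged from 12.11 to 12.37 (median 12.24) and ANIT rats from 12.12 to 12.31 (median 12.21), so the groups lay over each other, at a change of -0.02 with a 95% interval from -0.18 to 0.15. Cyp2d3, an enzyme of the drug-oxidising CYP2D group, ranged from 11.10 to 11.30 in vehicle rats at 24 h (median 11.19) and from 10.61 to 10.89 after ANIT (median 10.67). The groups were apart, at a log2 change of -0.50 ± 0.07 (limma adjusted p 1.06e-05). At 120 h Cyp2d3 ranged from 11.18 to 11.33 (median 11.26) in vehicle rats and from 11.01 to 11.27 (median 11.21) after ANIT, at a change of -0.08 with an interval from -0.23 to 0.06. Cyp2c23, the main arachidonic acid epoxygenase of rat kidney and also made in liver, ranged from 11.78 to 11.98 (median 11.83) in vehicle rats at 24 h and from 11.30 to 11.65 (median 11.41) after ANIT. These groups too were apart, at -0.40 ± 0.08 (limma adjusted p 0.000588). At 120 h the ranges were 11.79 to 11.91 (median 11.83) in vehicle rats and 11.58 to 12.03 (median 11.92) after ANIT, at a change of 0.02 ± 0.08.

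The other 14 genes of this group of 19 were not called at 24 h. The nearest to the threshold was Cyp2d2, at -0.27 ± 0.10 (limma adjusted p 0.0503) and -0.28 ± 0.10 at 120 h (adjusted p 0.153). Cyp2d2 was called lower at 24 h under 6 other settings and without any of 6 single arrays. Cyp2c12, a form made mainly by female rats, had changes of 0.55 ± 0.39 and 0.75 ± 0.39 at the 2 times, with 95% intervals from -0.25 to 1.34 and from -0.05 to 1.54. Its vehicle rats differed widely among themselves, from 7.72 to 11.21 at 120 h (median 9.77) and from 9.89 to 10.99 at 24 h (median 10.50). Cyp2t1 was at 0.04 ± 0.21 at 24 h and -0.75 ± 0.21 at 120 h, where vehicle rats ranged from 6.04 to 6.63 (median 6.43) and ANIT rats from 5.01 to 6.34 (median 5.57). These overlapped, and the limma adjusted p was 0.0686. Cyp2b12, described as an epoxygenase of rat skin glands, was at -0.25 ± 0.14 at 24 h and 0.44 ± 0.14 at 120 h, neither called, while the difference between the times was called, at 0.69 ± 0.19 (limma adjusted p 0.0196). Without the 6 arrays of narrowest spread named below that difference was 0.27 (adjusted p 0.529). Its mean log2 value was under 5, its vehicle rats ran from 4.09 to 4.70 (median 4.48) at 24 h and from 3.61 to 4.25 (median 4.04) at 120 h, and its ANIT rats from 3.96 to 4.43 (median 4.18) and from 4.16 to 4.91 (median 4.32).

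The rest had small changes at 24 h. Cyp3a23-3a1, the rat CYP3A form known for induction by steroids such as dexamethasone, was at -0.20 ± 0.11 with a 95% interval from -0.43 to 0.03, and Cyp3a18, another CYP3A enzyme, at -0.09 ± 0.17. Cyp2b3 was at -0.06 ± 0.07 with an interval from -0.21 to 0.09, which excludes a change of 1.5-fold. Cyp2a1, a testosterone hydroxylase, was at -0.23 ± 0.18, Cyp2a3 at -0.14 ± 0.11, Cyp2d4 at -0.13 ± 0.13 and Cyp2g1, known from olfactory mucosa, at -0.11 ± 0.15. Above 0 lay Cyp2f4, which in lung activates naphthalene, at 0.24 ± 0.16, Cyp2b21 at 0.10 ± 0.11 and Cyp1b1, which hydroxylates oestrogens, at 0.09 ± 0.19. None of these 10 genes passed the test at either time as fitted. Cyp2a1 was called lower at 24 h, at -0.52, -0.45 and -0.40 (limma adjusted p 0.0108, 0.0177 and 0.0379), with the hybridisation control level or the array SD as a covariate or after quantile normalization, and Cyp3a23-3a1 (-0.30, 0.0456) without ANIT 24 h replicate 2.

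The Cyp2j, Cyp2s and Cyp2u genes, epoxygenases and less studied members of family 2, moved in both directions at 24 h. Of these 5 genes, 1 rose and 2 fell. That was 60% of the 5, beside 18.2% of all genes. Cyp2j10 ranged from 4.64 to 5.67 in vehicle rats at 24 h (median 4.86) and from 5.21 to 5.97 after ANIT (median 5.55). The groups overlapped through 1 vehicle rat, and the log2 change was 0.58 ± 0.17 (SE), with a limma adjusted p of 0.0152. At 120 h vehicle rats ranged from 4.94 to 5.66 (median 5.24) and ANIT rats from 4.29 to 5.21 (median 4.68), at -0.50 ± 0.17 (adjusted p 0.136). The difference between the times was -1.09 ± 0.24 (limma adjusted p 0.00282). Leaving out ANIT 24 h replicate 6 took the 24 h change to 0.50 and its adjusted p to 0.0528.

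Cyp2j4 and Cyp2j3, both arachidonic acid epoxygenases of rat tissues, were lower at 24 h. Cyp2j4 ranged from 9.09 to 9.89 in vehicle rats (median 9.46) and from 8.61 to 9.07 after ANIT (median 8.79). The groups did not overlap, and the change was -0.70 ± 0.13 (limma adjusted p 0.000469). At 120 h the ranges lay over each other, 9.80 to 10.49 (median 10.11) in vehicle rats and 9.74 to 10.32 (median 10.02) after ANIT, at -0.12 ± 0.13. Cyp2j3 ranged from 9.43 to 10.28 (median 9.65) in vehicle rats at 24 h and from 9.06 to 9.64 (median 9.46) after ANIT. These groups overlapped, and the change of -0.40 ± 0.14 had a limma adjusted p of 0.0492, which 16 of the 24 arrays, left out singly, took over the threshold. At 120 h Cyp2j3 ranged from 10.13 to 10.76 (median 10.30) in vehicle rats and from 10.35 to 10.76 (median 10.49) after ANIT, at 0.16 ± 0.14. The vehicle rats themselves were higher at 120 h than at 24 h, by 0.64 ± 0.13 for Cyp2j4 (limma adjusted p 0.0889) and 0.55 ± 0.14 for Cyp2j3 (adjusted p 0.154). Cyp2u1, a fatty acid hydroxylase, was at -0.21 ± 0.22 and Cyp2s1 at -0.08 ± 0.16 at 24 h, and neither was called at either time.

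**Figure D2:**
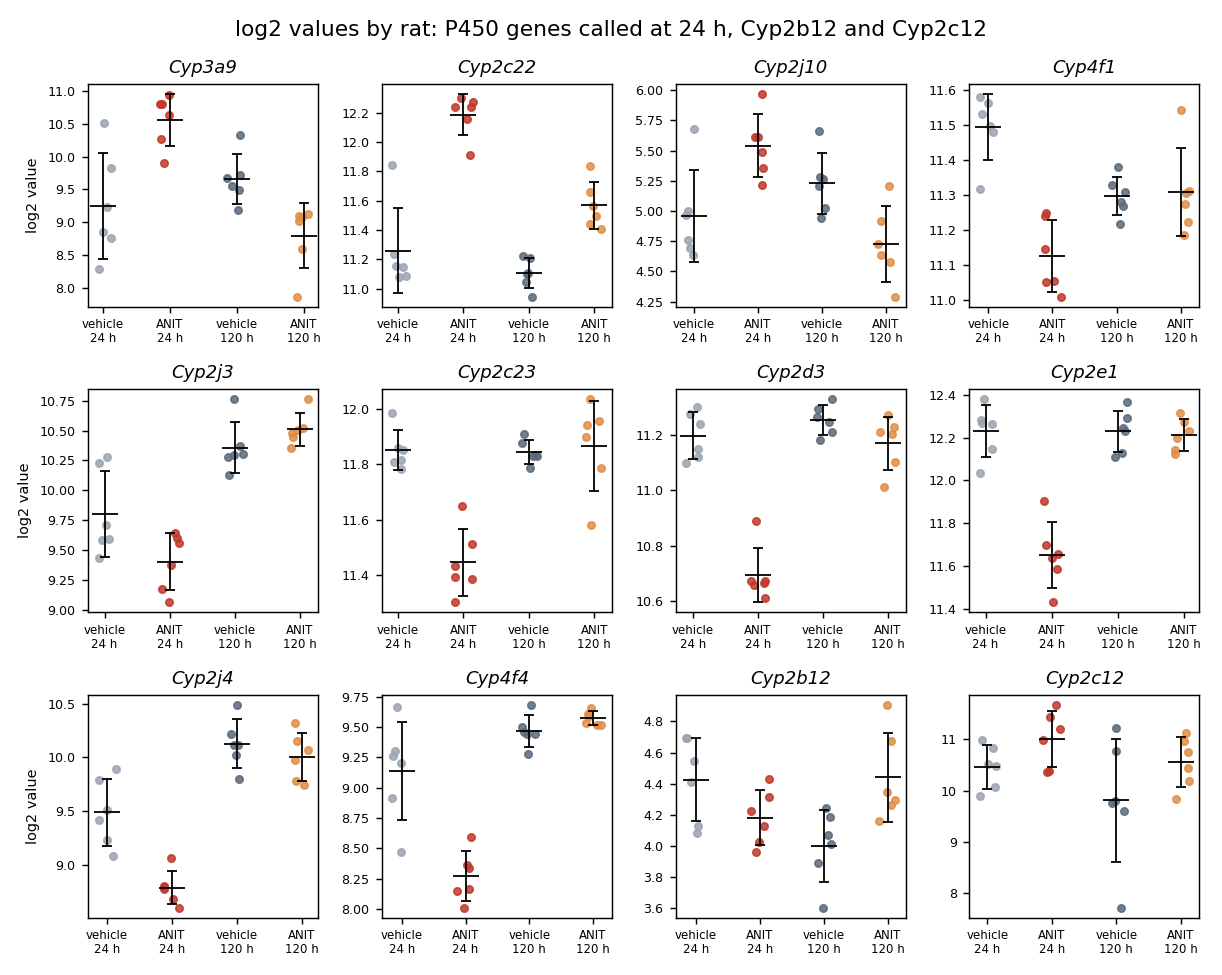
log2 values of each rat (points, 6 per group) for the 10 P450 genes called at 24 h and for Cyp2b12 and Cyp2c12, with the group mean and SD as bars and a separate vertical scale for each gene. Cyp2e1, Cyp2d3, Cyp2c23, Cyp4f1 and Cyp2j4 show every ANIT rat at 24 h below every vehicle rat, and Cyp2c12 shows the wide scatter of vehicle rats at 120 h.

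All 8 fatty acid hydroxylases of family 4 had a negative log2 change at 24 h, and 2 were called. That was 25% of the 8, beside 5.31% of all genes called lower. Cyp4f4, which like Cyp4f1 hydroxylates leukotriene B4 and long fatty acids at their far end, ranged from 8.47 to 9.66 in vehicle rats (median 9.23) and from 8.01 to 8.59 after ANIT (median 8.25). The lowest vehicle rat lay within the range of the ANIT rats, and the change was -0.87 ± 0.14 (SE, limma adjusted p 4.21e-05). At 120 h vehicle rats ranged from 9.27 to 9.68 (median 9.45) and ANIT rats from 9.51 to 9.65 (median 9.56), at 0.10 ± 0.14. Cyp4f1 ranged from 11.32 to 11.58 (median 11.51) in vehicle rats at 24 h and from 11.01 to 11.25 (median 11.10) after ANIT. Its groups did not overlap, at -0.37 ± 0.07 (limma adjusted p 0.000839). At 120 h the ranges were 11.22 to 11.38 (median 11.30) and 11.19 to 11.54 (median 11.29), at 0.01 ± 0.07.

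The other 6 genes of family 4 were not called at either time as fitted. Cyp4v3 was at -0.40 ± 0.20 (limma adjusted p 0.175) at 24 h, as far from 0 as the called Cyp2c23, with vehicle rats from 10.27 to 11.36 (median 11.22) and ANIT rats from 10.08 to 10.89 (median 10.72). Cyp4v3 was called lower at 24 h without the 6 arrays of narrowest spread (-0.73, limma adjusted p 0.0386) and with the control level as a covariate (-0.60, 0.0328). Its second, dimmer probe set gave -0.33 ± 0.53. Cyp4a3, a lauric acid hydroxylase, was at -0.20 ± 0.11, Cyp4b1 at -0.15 ± 0.23, Cyp4f6 at -0.07 ± 0.11, Cyp4a8 at -0.06 ± 0.23 and Cyp4f17 at -0.04 ± 0.11. The median over the 8 genes was -0.18 at 24 h and 0.08 at 120 h, where 6 of the 8 changes were above 0.

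None of the 10 members outside families 1 to 4 was called at either time by limma, beside 18.2% of all genes at 24 h and 2.02% at 120 h. Of them 1, Cyp26b1, had an unadjusted limma p under 0.05 at 24 h and 0 had at 120 h. The shares of all genes under that limit were 30.9% and 13.9%. The 4 steroid hormone synthesis genes, whose enzymes act chiefly in adrenal gland and gonads, were at -0.24 ± 0.13 for Cyp11a1, which starts steroid synthesis from cholesterol, -0.04 ± 0.13 for the aromatase Cyp19a1, 0.02 ± 0.07 for Cyp11b3 and 0.10 ± 0.12 for Cyp21a1 at 24 h. All 4 had mean log2 values under 5. The 5 genes of vitamin D, retinoic acid and oxysterol metabolism all had negative changes at 24 h, with a median of -0.29. They were Cyp46a1, a cholesterol hydroxylase of brain (-0.31 ± 0.16), Cyp26b1 (-0.30 ± 0.14) and Cyp26a1 (-0.11 ± 0.11), which clear retinoic acid, the oxysterol hydroxylase Cyp39a1 (-0.29 ± 0.15) and Cyp27b1, which activates vitamin D (-0.10 ± 0.10). A second Cyp26b1 probe set went the other way, at 0.12 ± 0.23. Cyp39a1 was called lower at 24 h, at -0.54, -0.49 and -0.45 (limma adjusted p 0.00203, 0.00168 and 0.00347), with the control level or the array SD as a covariate or after quantile normalization. Cyp20a1, a P450 of unknown substrate, was at 0.26 ± 0.13, and without vehicle 24 h replicate 1 it was called higher, at 0.38 (adjusted p 0.0169).

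Intervals show how far the uncalled genes could have moved. At 24 h, 25 of the 32 uncalled genes had a 95% interval for their change that lay within 1.5-fold in both directions, and at 120 h 30 of 41 did. The widest interval, that of Cyp2c12, reached 0.80 to either side of its estimate and the narrowest 0.14. For 10 genes the mean log2 value over all arrays was under 5, where probe signal is weak, and for 32 it was 5 or more. All 10 dim genes are among the 25 at 24 h. At weak signal a narrow interval says little of how far the RNA itself moved.

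The size of the ANIT effect at 120 h was tested against that at 24 h. It was higher at 120 h for 7 of the 42 genes and lower for 3, where 3.33% of all genes were called higher and 11% lower. Of the genes that had fallen at 24 h, Cyp4f4 (0.97 ± 0.19, limma adjusted p 0.0012), Cyp2e1 (0.56 ± 0.11, 0.00162), Cyp2d3 (0.42 ± 0.10, 0.0057), Cyp2c23 (0.43 ± 0.11, 0.0116), Cyp4f1 (0.38 ± 0.11, 0.0176) and Cyp2j4 (0.58 ± 0.19, 0.0407) passed, and Cyp2j3 did not (0.56 ± 0.20, 0.0626). Under 6 other settings the Cyp2j3 difference was called, at 0.56 to 0.97 (adjusted p 0.0077 to 0.0494). The seventh was Cyp2b12. The 3 lower were the genes that had risen at 24 h, Cyp3a9, Cyp2j10 and Cyp2c22. These changes at the 2 times share no rats, but the test of their difference uses both, so a large 24 h change enters both tests. The calls of Cyp3a9 and Cyp4f4 held under all alternatives run, and those of Cyp2c22 and Cyp2j4 were ended by leaving out single arrays. With the beta-actin ratio as a covariate the calls were Cyp4f4 (1.17) and Cyp2j3 (0.97, limma adjusted p 0.0359) higher and Cyp3a9 (-2.51) lower. Cyp2e1 (0.39, 0.205), Cyp2d3 (0.49, 0.0526), Cyp2c23 (0.31, 0.357), Cyp4f1 (0.45, 0.102), Cyp2j4 (0.55, 0.341), Cyp2j10 (-0.93, 0.147) and Cyp2b12 (0.61, 0.291) were then not called, nor was Cyp2c22. Over all genes the shares called in the difference fell too, to 1.44% higher and 1.82% lower. The ratio did not overlap between ANIT and vehicle rats at 24 h, so this fit cannot tell RNA quality from ANIT at that time.

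**Figure D3:**
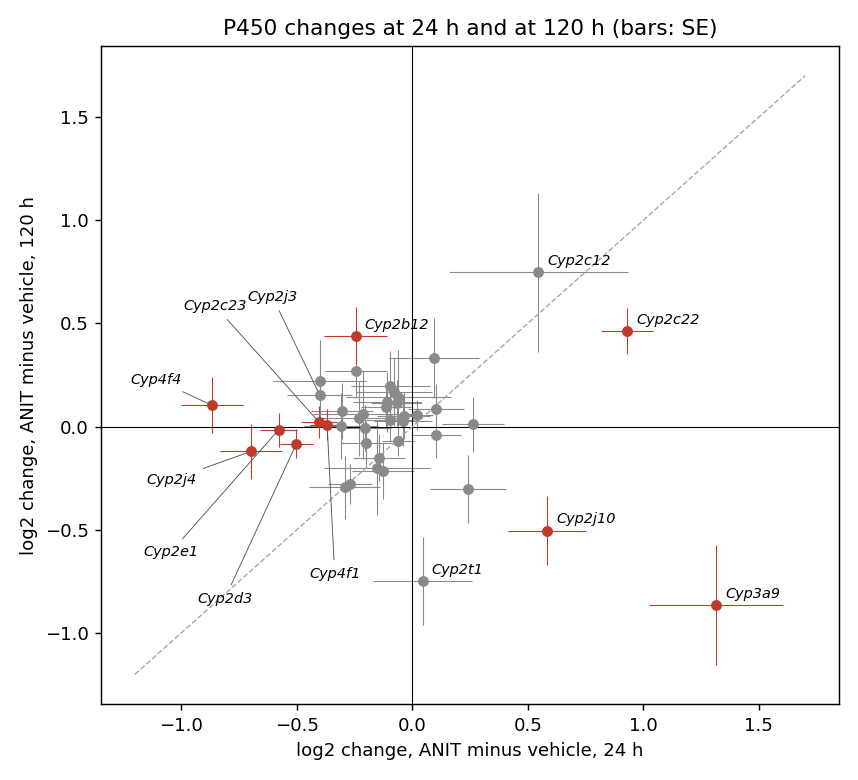
log2 change (ANIT minus vehicle) of the 42 P450 genes at 24 h (horizontal) and at 120 h (vertical), with bars of 1 SE and a dashed line where both are equal. Red marks the 10 genes whose effect differed between times. Cyp3a9 and Cyp2j10 lie to the right of 0 and below it, and the genes lower at 24 h lie near 0 at 120 h.

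Rats were then taken one by one. Over the 10 genes called at 24 h, the ANIT rats of that time lay beyond all 6 vehicle rats, in the called direction, at 8, 6, 7, 9, 9 and 10 genes for replicates 1 to 6. At 120 h the ANIT rats did so against the vehicle rats of 120 h at 3, 1, 3, 1, 3 and 2 genes. The genes and their directions were picked from these same 24 h rats. High counts at 24 h, and lower ones at 120 h, follow in part from that choice. At 24 h 1 gene, Cyp2c22, had all ANIT rats above all vehicle rats and 5 had all below, which is 14.3% of the 42 genes, beside 7.87% of all genes in either direction. At 120 h Cyp2c22 was wholly above and Cyp3a9 wholly below, 4.76% beside 2.14% of all genes.

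Vehicle rats at 120 h were compared with those at 24 h. By limma 0 of the 42 genes were called higher and 0 lower, with 9 of 42 (21.4%) at an unadjusted p under 0.05, beside 1639 of 13438 genes (12.2%). Over all genes 0.00744% were called higher and 0% lower. Without vehicle 24 h replicate 1, 3 genes were called higher, Cyp2j4 (0.72 ± 0.13, limma adjusted p 0.0165), Cyp2j3 (0.65 ± 0.14, 0.0227) and Cyp20a1 (0.55 ± 0.12, 0.0246). The spread among vehicle rats, pooled over both times, had a median SD of 0.22 over the 42 genes and 0.23 over all genes. It was widest for Cyp2c12 (0.91), Cyp3a9 (0.63), Cyp4v3 (0.47), Cyp4b1 (0.45) and Cyp2u1 (0.37), and narrowest for Cyp2c23 (0.059).

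Electron donors and haem synthesis enzymes were followed as partners, 9 of 11 on the list being measured. At 24 h 1 rose and 2 fell, 33.3% of the 9, beside 18.2% of all genes. Cyb5b, the cytochrome b5 of the outer mitochondrial membrane, ranged from 6.90 to 7.90 in vehicle rats (median 7.28) and from 8.06 to 8.35 after ANIT (median 8.14). The groups did not overlap, at 0.83 ± 0.20 (limma adjusted p 0.00405). Fdx1, which feeds the mitochondrial P450s, ranged from 9.77 to 10.28 (median 10.10) in vehicle rats and from 9.03 to 9.41 (median 9.21) after ANIT, also apart, at -0.87 ± 0.13 (limma adjusted p 2.05e-05). Alad, an enzyme of haem synthesis, changed by -0.40 ± 0.12 at 24 h (adjusted p 0.0251) and by -0.49 ± 0.12 at 120 h (adjusted p 0.039). At 120 h Cyb5r3, the cytochrome b5 reductase, was lower too, at -0.62 ± 0.14 (limma adjusted p 0.0175). The share called at 120 h was 22.2% of the 9, beside 2.02% of all genes. Por, Cyb5b and Fdx1 had 2 probe sets each, and only the brightest was read.

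Por, the reductase on which the endoplasmic P450s depend, was called at neither time. Its vehicle rats ranged from 6.66 to 8.79 at 24 h (median 8.03) and its ANIT rats from 7.97 to 9.04 (median 8.60), at 0.64 ± 0.27 (limma adjusted p 0.0998). At 120 h the ranges were 7.97 to 8.81 (median 8.55) and 7.41 to 8.20 (median 7.71), at -0.75 ± 0.27 (adjusted p 0.166). The difference between these effects was called, at -1.39 ± 0.38 (limma adjusted p 0.0145). So were the differences of Cyb5b (-0.89 ± 0.28, 0.0332) and Fdx1 (0.71 ± 0.18, 0.01). At 120 h Cyb5b was at -0.07 ± 0.20 and Fdx1 at -0.16 ± 0.13, neither called. The share called in the difference was 33.3% of the 9 partners, beside 14.3% of all genes. Alas1, which sets the pace of haem synthesis, was at -0.20 ± 0.19 at 24 h and 0.05 ± 0.19 at 120 h. Cyb5a, Fech and Pgrmc1 were called in none of the comparisons.

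Of 15 receptors and factors known to act on P450 genes, 14 were measured. The share called at 24 h was 28.6% of the 14, beside 18.2% of all genes (12.9% higher and 5.31% lower). Hnf4a had 3 probe sets and Ahr and Rara 2 each, and only the brightest was read. At 24 h 2 rose, Stat5b, a mediator of growth hormone (0.60 ± 0.15, limma adjusted p 0.00509, mean log2 value 4.74, where signal is weak), and Hnf4a (0.31 ± 0.09, 0.0187), and 2 fell. These were the bile acid receptor Nr1h4 (-1.16 ± 0.20, limma adjusted p 0.000142) and CAR, Nr1i3 (-0.95 ± 0.25, 0.00938). Nr1h4 ranged from 8.12 to 8.75 (median 8.34) in vehicle rats and from 6.91 to 8.01 (median 7.12) after ANIT, without overlap. Nr1i3 ranged from 6.95 to 8.26 (median 7.61) in vehicle rats and from 5.92 to 7.40 (median 6.75) after ANIT, with overlap. None of the 14 was called at 120 h by limma, with 1 of 14 at an unadjusted p under 0.05, beside 13.9% of all genes. PXR, Nr1i2, was at 0.19 ± 0.15 at 24 h. At 120 h its ANIT rats, from 7.84 to 8.33, all lay below its vehicle rats, from 8.36 to 8.76, at -0.48 ± 0.15 (limma adjusted p 0.0934). The difference between its effects was called, at -0.67 ± 0.21 (adjusted p 0.0307). So were the differences of Nr1h4 (1.17 ± 0.28, limma adjusted p 0.00646) and Stat5b (-0.79 ± 0.21, 0.0133). At 120 h Nr1h4 was at 0.01 ± 0.20 and Stat5b at -0.18 ± 0.15. The share called in the difference was 21.4% of the 14, beside 14.3% of all genes.

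**Figure D4:**
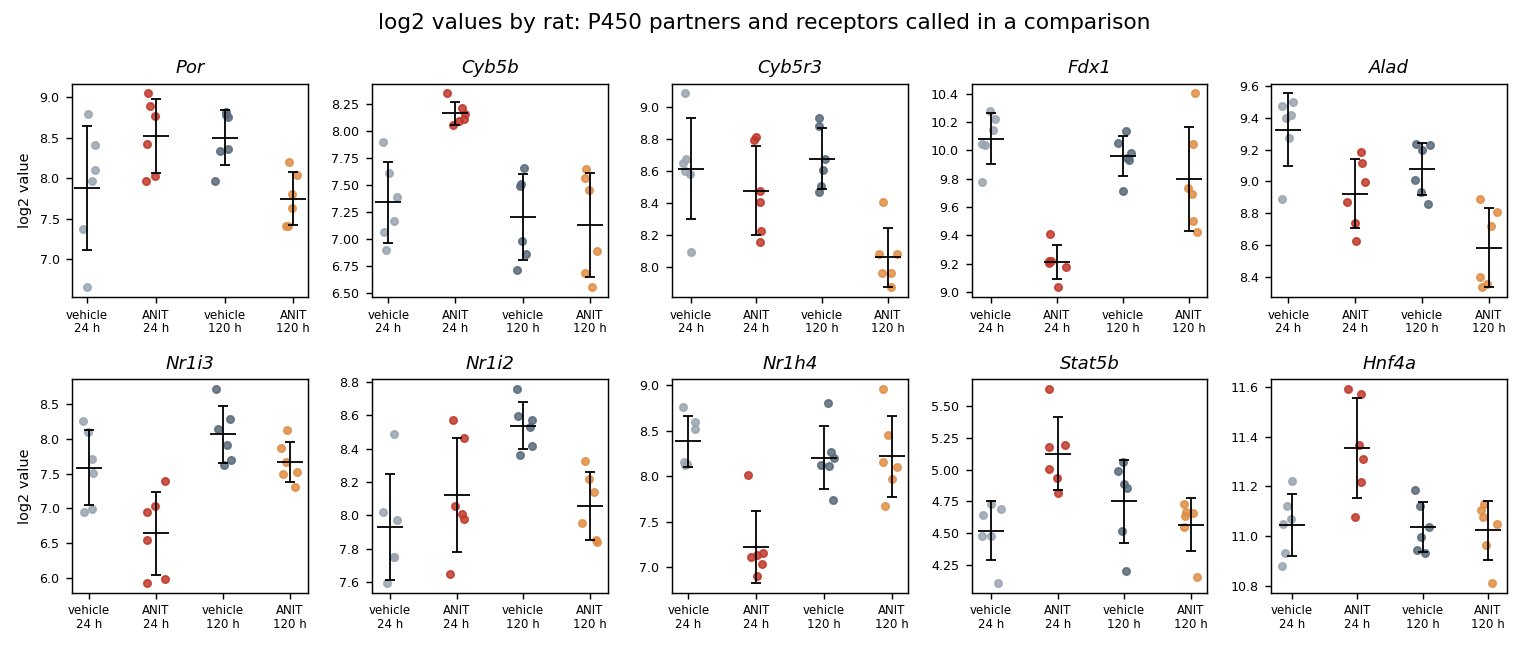
log2 values of each rat (points, 6 per group) for electron donors, haem enzymes and receptors called in 1 comparison or more, with group mean and SD as bars and a separate vertical scale for each gene. Cyb5b, Fdx1, Nr1h4 and Stat5b separate ANIT from vehicle rats at 24 h. Cyb5r3 and Nr1i2 show every ANIT rat below every vehicle rat at 120 h.

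Some markers of cell types and some array measures differed between the groups, and their part in the P450 results was not tested. The counts of markers below stand beside 12.9% of all genes higher and 5.31% lower at 24 h, and 0.513% and 1.51% at 120 h. Liver was checked by 5 hepatocyte markers, whose mean log2 level was 12.63 to 12.97 over all rats. Of these 1 fell at 24 h (Ahsg, -0.27 ± 0.07), and the mean level ran from 12.86 to 12.97 in vehicle and 12.69 to 12.87 in ANIT rats. Of 5 markers of hepatocytes around the central vein that are no P450s, 2 fell at 24 h (Oat and Glul), with mean levels of 7.19 to 7.50 in vehicle and 6.88 to 7.11 in ANIT rats, and of 7 markers of the portal side 1 fell (Sds), with 9.64 to 10.46 and 9.46 to 10.07. Neutrophil markers rose at 24 h for 2 of 4 (S100a8 and S100a9), with mean levels of 4.65 to 5.56 in vehicle and 5.42 to 5.94 in ANIT rats. Bile duct cell markers rose at 120 h for 2 of 6 (Krt19 and Cftr), with 4.64 to 4.87 in vehicle and 4.90 to 5.26 in ANIT rats. Cftr had a mean log2 value of 4.09, where signal is weak. At 24 h 2 of 5 stellate cell, 2 of 3 lymphocyte and 1 of 3 endothelial markers fell and 1 of 4 macrophage markers, Cd163, rose, as it did at 120 h (0.43 ± 0.10, limma adjusted p 0.0239). Cd79b, 1 of the lymphocyte markers that fell, had a mean log2 value of 4.44, also weak. The ratio of the 3' to the 5' probe sets of beta-actin (log2), a sign of RNA quality, was 2.98 to 3.18 in ANIT rats at 24 h and 2.77 to 2.91 in their vehicle rats. These ranges did not overlap, so with this ratio as a covariate ANIT and RNA quality cannot be told apart at 24 h. In that fit the 24 h calls of Cyp2c23 (-0.31, limma adjusted p 0.125) and Cyp2j10 (0.46, 0.368) were lost. There 2 genes were called higher and 6 lower. Over all genes that covariate took the shares called at 24 h from 12.9% to 3.44% higher and from 5.31% to 3.31% lower. The 6 arrays of narrowest spread (vehicle 24 h replicates 3, 4 and 5 and ANIT 120 h replicates 4, 5 and 6) held the lowest SDs of values, 1.84 to 1.90. Without them 3 genes were called higher and 7 lower at 24 h and 1 higher at 120 h, with Cyp4v3 now called and Cyp2j3 no longer (adjusted p 0.132), and Cyp3a9 stood at 1.06 and Cyp4f4 at -1.12. Over all genes 6.11% were then higher and 5.45% lower at 24 h, and 1.06% higher at 120 h. Close P450 relatives share sequence, so a probe set named for 1 of them can also take signal from another.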

How the data were processed

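The authors deposited log2 values for 31139 probe sets on 24 arrays, made with RMA and Partek, per the submitters' processing notes; versions: not given in the sources used here. Values were used as deposited. Names came from the platform annotation: 19068 probe sets named 1 gene, 573 several genes or 1 symbol under several identifiers, and 11498 none listed. Entrez identifiers were checked against RefSeq's GRCr8 table, which renamed 0 and lacked those of 79. The most intense probe set stood for each gene. Groups came from the description label; replicate numbers only name rats. A cell-means model of 4 groups was fitted with limma 3.58.1 (R 4.3.3, lmFit and eBayes) over 13438 genes, and tested on simulated data. The number of arrays limits precision. Members called in an ANIT comparison or in the difference were given with their values in every group, the others by their change to complete each family. Alternatives changed the normalization, covariates, filter, probe sets, variance model and arrays. Figures used Python 3.11.15 and matplotlib 3.10.9. The members and lists were chosen with earlier results of these data known, and the promoter windows and motifs after their values were seen, in place of protein stretches, which were not analysed here.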

Additional observations from a re-analysis of the deposited data

Results flagged for a closer look

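In 44 groups of 6 rats (the 11 P450 genes called in any comparison, in each of 4 groups), 5 held 1 rat far from its nearest neighbour, where chance gives about 1 in 20. For Cyp2c22 the highest vehicle rat at 24 h, replicate 4, stood at 11.84 against 11.24 for the next, and the lowest ANIT rat at 24 h, replicate 4, at 11.92 against 12.16. For Cyp2d3 the highest ANIT rat at 24 h, replicate 2, stood at 10.89 against 10.67. For Cyp2j10 the highest vehicle rat at 24 h, replicate 5, stood at 5.67 against 5.004. For Cyp4f1 the highest ANIT rat at 120 h, replicate 2, stood at 11.54 against 11.31.

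The ANIT effect at 120 h minus that at 24 h passed the limma test for 10 P450 genes. It was above 0 for Cyp4f4 (0.97), Cyp2b12 (0.69), Cyp2j4 (0.58), Cyp2e1 (0.56), Cyp2c23 (0.43), Cyp2d3 (0.42) and Cyp4f1 (0.38). It was below 0 for Cyp3a9 (-2.18), Cyp2j10 (-1.09) and Cyp2c22 (-0.47).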

How the results depend on the processing

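Every call of the 11 P450 genes called in any comparison kept its direction under the settings run, up to 11 others and each of the 24 arrays left out. Cyp2c22, Cyp2d3, Cyp2e1, Cyp2j4, Cyp3a9, Cyp4f1 and Cyp4f4 were called at 24 h under all of them. The number lower at 24 h was 11 with the hybridisation control level as a covariate, which added Cyp2a1, Cyp2d2, Cyp39a1 and Cyp4v3, and 10 with the array SD or after quantile normalization, which added the first 3 of these. Over all genes the share lower at 24 h also rose, from 5.31% to 10.3%, 10.6% and 8.1% in that order. The number higher at 120 h was 2 with the array SD as a covariate or quantile normalization and 0 after a median shift, and the number lower was 1 (Cyp2t1) with the control level, the array SD or quantile normalization. Over all genes the shares higher were 2.57%, 1.42% and 0.283% there, and the shares lower 1.65%, 2.28% and 2%, in the order named. The number whose effect was higher at 120 h was 2 with the beta-actin ratio and 3 after a median shift, and the number lower 1 with the beta-actin ratio. Of all genes 1.44% and 1.64% were then higher, and 1.82% lower with the beta-actin ratio. A trended, robust variance gave 1 gene, Cyp2j4, higher in vehicle at 120 h. With single arrays left out the number higher at 120 h ran from 0 to 1, the number lower from 0 to 1 (Cyp2t1, without ANIT 120 h replicate 2 or 3), and the vehicle number higher from 0 to 3. The Cyp2j3 call at 24 h was lost (adjusted p 0.0512 to 0.144) without any array except vehicle 24 h replicates 2, 5 and 6, ANIT 24 h replicates 1, 2 and 3, vehicle 120 h replicate 3 and ANIT 120 h replicate 2. The Cyp2c22 difference was lost with the 3 covariates and after quantile normalization, and (0.0519 to 0.0851) without any array except replicate 4 of either 24 h group and replicate 1 of either 120 h group. The Cyp2j4 difference was lost with the beta-actin ratio, after a median shift, and (0.0528 to 0.078) without vehicle 24 h replicates 4, 5 or 6, ANIT 24 h replicates 1, 3, 5 or 6, vehicle 120 h replicates 2, 4, 5 or 6, or ANIT 120 h replicates 2, 3, 4 or 5. The Cyp2b12 difference was lost with each of the 3 covariates and without the 6 arrays of lowest SD (adjusted p up to 0.529). The cause of these changes was not tested. Of all genes called, the share higher was 70.9% at 24 h, 25.4% at 120 h and 23.3% for the difference, and it moved to between 44.2% and 81.2%, 26.6% and 52.9%, and 12.1% and 56.9% under other scalings and covariates, and to 52.8%, 73.2% and 60.6% without the 6 arrays of lowest SD. The median shift set the median of all genes at -0.13 for the difference. No paired analysis was possible because the replicate numbers, given in accession order, pair no rats.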
